A study of Mus musculus with 16 samples.

Results

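The genes described here are 37 genes that serve protein folding in the endoplasmic reticulum (ER) and the unfolded protein response (UPR). They were picked by symbol from the 54532 genes of the count table, as ER chaperones, disulfide enzymes, subunits of the protein translocation channel, parts of ER-associated degradation and the UPR sensors. All 37 were among the 16910 genes abundant enough to be tested. The samples were pancreatic islets of male db/db mice, 12 to 13 weeks old, of the strain BKS(D)-Leprdb/JOrlRj, in which the leptin receptor is defective and obesity and diabetes develop. After overnight recovery the islets were cultured for 1 day with the solvent DMSO or with 10 µM adjudin, a small molecule studied before as a reversible male contraceptive, in medium that held 11 mM glucose. There were 8 samples per treatment, each from the islets of 1 to 2 mice, and every batch number from 1 to 8 labelled 1 DMSO sample and 1 adjudin sample. All samples carried the diabetic genotype, islets of non-diabetic mice were not analysed here, and batches of islets that looked aberrant had not been used by the study.

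Secreted proteins such as proinsulin enter the ER through the translocon, are bound by the chaperone BiP (encoded by Hspa5) and its partners, and are joined by disulfide bonds before they leave. When unfolded protein builds up, the sensors IRE1 alpha (Ern1), ATF6 (Atf6) and PERK (Eif2ak3) start the UPR, which raises the transcription of chaperones and degradation factors through the factors XBP1 and ATF6 and slows translation through PERK. The beta cell, which makes insulin in bulk, depends heavily on this machinery. Counts per gene hold the amount of each mRNA and not the splicing of Xbp1, the cleavage of ATF6 or the phosphorylation of the sensors.

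XBP1 and ATF6 are known to act on short promoter elements, and these were looked for in the RefSeq promoters (GRCm38.p6, from 250 bases before to 50 bases after each transcription start), because they are the sequences by which many of these genes are recognised as UPR targets. The promoters of 30 of the 37 genes were found by symbol or synonym, and Derl1, Hyou1, Manf, Sil1, Sec11c, Sec61a1 and Atf6 were not matched. The ER stress element ERSE (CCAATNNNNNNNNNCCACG, on either strand) was present in 10 of the 30 genes (33.3%), and in 37 of all 27025 genes with a promoter in the table (0.137%). ERSE-II (ATTGGNCCACG, either strand) was present in 2 of the 30 genes against 0.0444% of all genes, and the element UPRE (TGACGTGG, either strand) in 1 of the 30 against 0.714%. The letters CCACG, read on the other strand, also end the UPRE, so the elements can overlap. The sites are written along the strand on which the element reads as spelled above, with the bases that the element names in capitals, and the distance is counted in bases from the start, itself counted as 0.
Hspa5, -65 to -47: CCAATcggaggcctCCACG
Hsp90b1, -212 to -194: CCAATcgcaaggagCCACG
Hsp90b1, -107 to -89: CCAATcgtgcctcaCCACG
Calr, -162 to -144: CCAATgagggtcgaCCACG
Canx, -145 to -127: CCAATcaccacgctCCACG
Pdia6, -98 to -80: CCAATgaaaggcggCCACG
Creld2, -126 to -108: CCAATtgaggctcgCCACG
Dnajc3, -105 to -87: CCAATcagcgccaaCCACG
Derl3, -156 to -138: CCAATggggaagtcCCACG
Syvn1, -44 to -26: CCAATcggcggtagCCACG
Ero1lb, -201 to -183: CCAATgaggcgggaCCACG
Herpud1 (ERSE-II), -52 to -42: ATTGGgCCACG
Dnajb11 (ERSE-II), 7 to 17: ATTGGcCCACG
Txndc5 (UPRE), -138 to -131: TGACGTGG

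The 250 bases before the start are shown for the gene of the main chaperone and for the gene with the largest change in this comparison. The first is Hspa5 (chr2:34771840-34772089, plus strand) and the second Ero1lb (chr13:12565633-12565882, plus strand), where the ERSE lies on the opposite strand. Capitals mark the named bases of the ERSE.
Hspa5: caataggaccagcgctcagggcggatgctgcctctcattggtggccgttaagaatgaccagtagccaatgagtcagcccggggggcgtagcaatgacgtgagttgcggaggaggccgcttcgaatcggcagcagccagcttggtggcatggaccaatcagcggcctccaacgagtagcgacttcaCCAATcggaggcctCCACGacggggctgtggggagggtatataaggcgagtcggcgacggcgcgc
Ero1lb: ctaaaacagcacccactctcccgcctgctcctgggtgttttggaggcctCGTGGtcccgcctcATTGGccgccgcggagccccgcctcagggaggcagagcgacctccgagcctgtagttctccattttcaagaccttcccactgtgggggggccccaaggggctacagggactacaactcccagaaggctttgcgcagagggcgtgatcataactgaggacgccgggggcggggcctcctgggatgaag
A match describes the letters in the window and says nothing of whether a factor was bound there in these islets.

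The libraries held between 24190102 and 32675186 counts with DMSO and between 24852862 and 34471164 with adjudin. Levels are given as counts-per-million values (CPM, on library sizes adjusted for composition) or, between genes, as the same divided by gene length in kilobases (RPKM). The markers matched the label of islet: in the DMSO samples 9 beta cell markers summed to between 35958 and 121500 CPM, 9 markers of stellate cells and fibroblasts to between 9465 and 19535, 16 of acinar cells to between 5671 and 13902, and 10 of macrophages to between 565 and 1162. Markers of the other islet cells lay below the beta cell sum. With DMSO 5 alpha cell markers summed to between 4488 and 10593 CPM, 4 of delta cells to between 755 and 1744, and 2 of PP cells to between 3460 and 5687. Batch 4 had the lowest beta cell sum and the highest sum of stellate cells and fibroblasts. In such bulk samples fewer cells of a type and less RNA per cell cannot be told apart.

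In DMSO islets the ER folding genes spanned a wide range of RPKM, and the most abundant were the luminal chaperones and isomerases. P4hb, the archetypal protein disulfide isomerase, had the highest mean at 427 ± 17.5 RPKM (SD, n = 8), with samples between 405 and 463. Pdia3, the isomerase that works with the lectin chaperones, had 362 ± 27.4 RPKM (337 to 406). Hspa5 had 360 ± 32.1 RPKM (324 to 418) and Calr, encoding the soluble lectin chaperone calreticulin, 353 ± 31.5 RPKM (316 to 401). The ranges of Pdia3, Hspa5 and Calr overlapped widely, and the lowest P4hb sample lay within those of Pdia3 and Hspa5.

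Below these came Hsp90b1, the ER form of the HSP90 chaperone, at 215 ± 44.0 RPKM and Pdia6, a further isomerase and BiP partner, at 160 ± 31.0 RPKM. The mRNA of XBP1 stood at 102 ± 6.45 RPKM, above those of the sensors PERK (31.9 ± 3.88 RPKM), IRE1 alpha (28.2 ± 3.27 RPKM) and ATF6 (15.3 ± 2.05 RPKM). The oxidases that recharge the isomerases differed, with 41.8 ± 10.1 RPKM for Ero1lb, the form known from the pancreas, against 12.5 ± 1.23 RPKM for the widely expressed Ero1l. The ranges of these 2 oxidases did not overlap (24 to 54.8 and 10.7 to 14.2 RPKM). Derl2 and Derl3 encode derlins, membrane proteins of ER-associated degradation. Derl2 had 11.6 ± 1.27 RPKM and overlapped with Ero1l, while Derl3 was the least abundant of the 37 genes at 2.68 ± 0.358 RPKM (2.09 to 3.20).

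**Figure D1:**
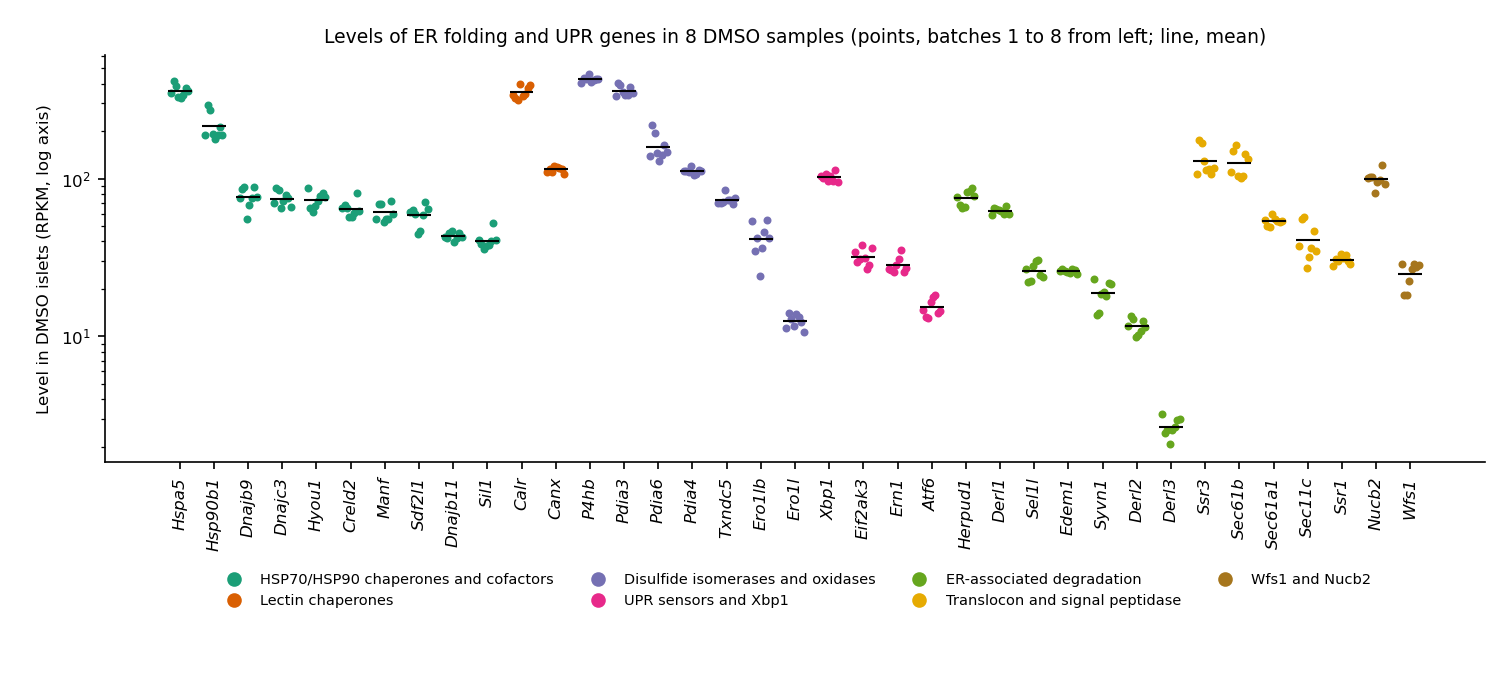
Level of each of the 37 genes in the 8 DMSO samples in RPKM on a log axis, grouped and coloured by role. Each point is 1 sample, in batch order from left to right, and the line is the mean. P4hb, Pdia3, Hspa5 and Calr lie highest, between 316 and 463 RPKM, and Derl3 lowest, between 2.09 and 3.20 RPKM.

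The study set adjudin against DMSO to find its effect on gene expression in db/db islets. For the folding machinery the changes were small: every one of the 37 genes had a log2 fold change below 0.15 in size, and the 95% intervals of all 37 lay between -0.25 and 0.25. Of these genes, 2 passed the test, Ero1lb and Wfs1, both higher with adjudin, and 0 were lower (edgeR quasi-likelihood test within batches, Benjamini-Hochberg adjusted p under 0.05 over all 16910 genes). Over all tested genes 2.17% were called higher, 3.07% lower and 5.24% in either direction, so that 2 of 37 is close to the background. The direction differed by batch. With adjudin 32 of the 37 genes were lower in batch 6 and 25 in batch 7, while 24 were higher in batch 3 and 25 in batch 4. Their median log2 differences in these batches were -0.070, -0.058, 0.023 and 0.021, against -0.0061, 2.4e-05, -0.0025 and 0.015 over all genes. In the other batches 11 to 18 of the 37 were higher.

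At an unadjusted p under 0.05 there were 12 of the 37, 4 higher and 8 lower (32.4%), against 21% of all tested genes, 10.1% higher and 10.9% lower. Among 3565 abundant genes 31.8% had an unadjusted p under 0.05. These were the genes with a mean DMSO level of at least 65.049 CPM, that of Sdf2l1, the lowest of the 37 but Derl3. This cut sets no upper bound and kept 35 of the 37 genes. Of all 37, 13 genes had a positive and 24 a negative fold change, while 8215 of all 16910 genes were negative. The median log2 fold change was -0.0095, against 0.0032 over all genes. Of the 3565 abundant genes 1912 were negative, with a median of -0.0056. The DMSO and adjudin ranges overlapped for all 37 genes. DESeq2 called 3 of the 37, with 1 lower (P4hb). Without the batch term 0 of the 37 genes were called, when only 1 of the 16910 genes was.

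**Figure D2:**
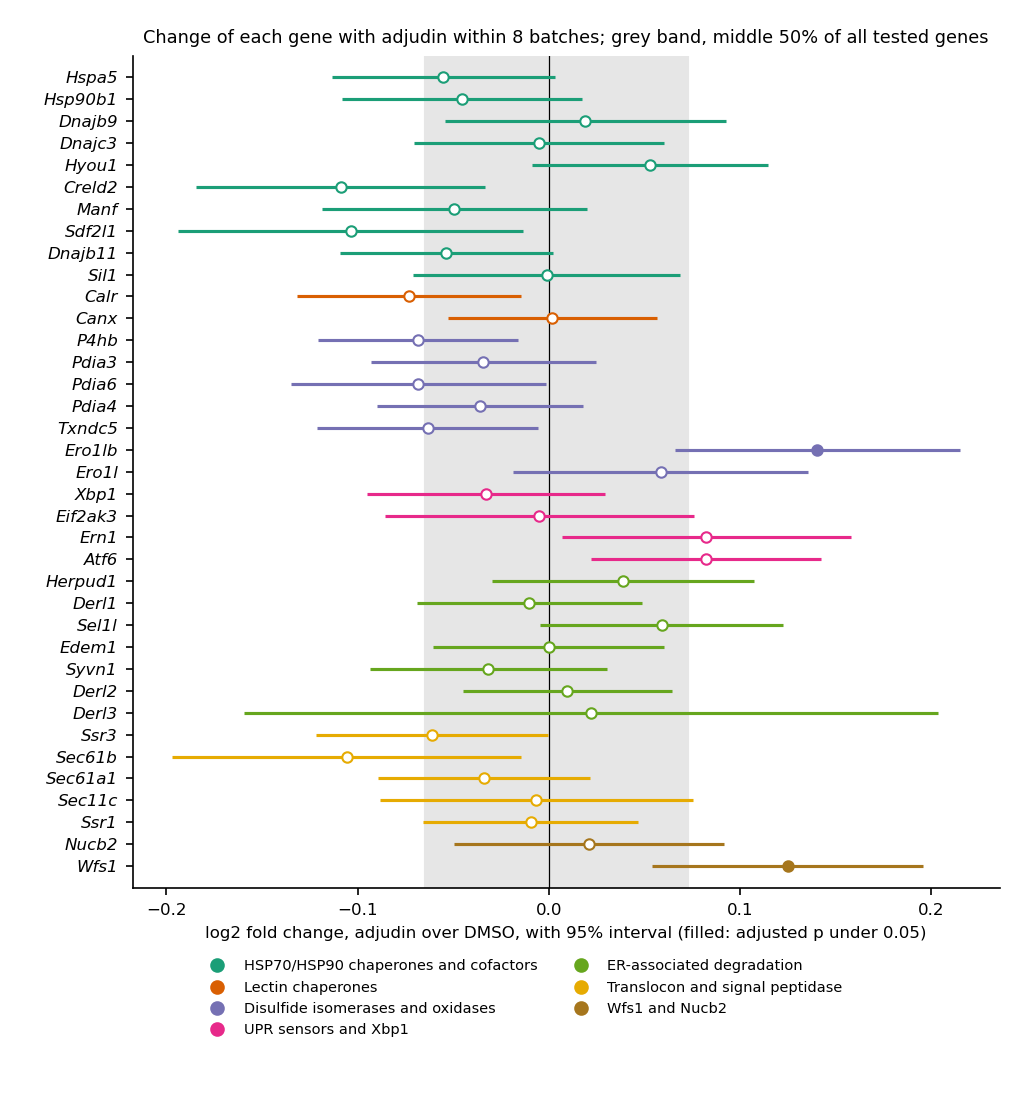
Log2 fold change of each of the 37 genes, adjudin over DMSO, from the fit with batch as a term. Lines are 95% intervals, filled points have an adjusted p under 0.05 and the grey band spans the middle 50% of all tested genes. Only Ero1lb (0.14) and Wfs1 (0.12) are filled, and all intervals stay between -0.25 and 0.25.

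Ero1lb (ENSMUSG00000057069, chr13:12565874-12611396 on GRCm38, plus strand) encodes an oxidase that passes electrons from protein disulfide isomerase to oxygen and is known to favour proinsulin folding. Its lowest, median and highest levels were 160, 279 and 364 CPM with DMSO and 196, 303 and 415 CPM with adjudin. The groups overlapped widely, yet the adjudin sample was the higher in 7 of 8 batches, with batch 6 (308 CPM with DMSO, 301 CPM with adjudin) the exception. The log2 fold change was 0.14 ± 0.035 (SE), a rise of 10.2% (95% interval 4.66% to 16.1%, edgeR adjusted p = 0.0303). The largest rise was in batch 4, where the DMSO level was the lowest of the 8.

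Wfs1 (ENSMUSG00000039474, chr5:36966104-36989205, minus strand) encodes wolframin, an ER membrane protein whose loss causes Wolfram syndrome with diabetes. Its lowest, median and highest levels were 69.1, 103 and 109 CPM with DMSO and 74.1, 106 and 123 CPM with adjudin. Adjudin was higher in 8 of 8 batches, as for 2.22% of all tested genes, but by very unequal amounts: from 69.7 to 83.3 CPM in batch 2 and from 108 to 109 CPM in batch 6. The log2 fold change was 0.12 ± 0.033 (SE), a rise of 9.05% (95% interval 3.82% to 14.5%, edgeR adjusted p = 0.0400).

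The fold changes stayed close to these values whichever batch was left out, 0.12 to 0.17 for Ero1lb and 0.11 to 0.14 for Wfs1, but most of these smaller fits lost the calls. With a batch left out, Ero1lb was no longer called without batch 2, 3, 4, 7 or 8 (adjusted p between 0.0557 and 0.0956, and between 0.00895 and 0.0956 over the 8 ways of leaving out a batch). Wfs1 was no longer called without batch 1, 2, 3, 4 or 7 (adjusted p between 0.0738 and 0.118, and between 0.0211 and 0.118 over the 8 ways).

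**Figure D3:**
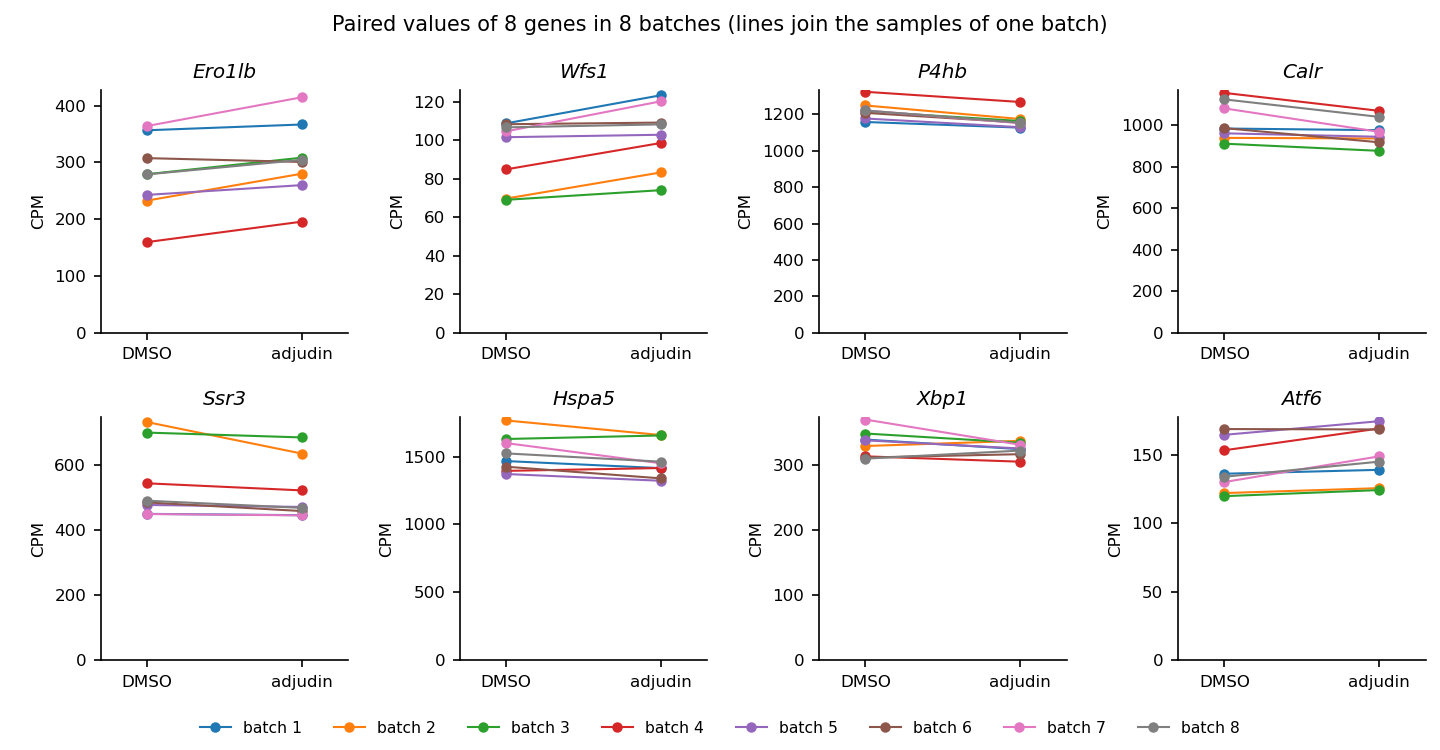
CPM of 8 of the genes with DMSO and with adjudin, with a line joining the 2 samples of each batch and each axis starting at 0. Ero1lb rises in 7 of 8 batches and Wfs1 in 8 of 8, P4hb, Calr and Ssr3 are lower in 8 of 8, and in all panels but that of Xbp1 the SD between batches exceeds that of the steps within them.

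Among the HSP70 and HSP90 chaperones and their cofactors 0 of 10 genes passed the edgeR test and 2 (Creld2 and Sdf2l1, both lower) had an unadjusted p under 0.05. Of the 10 genes 2 had positive and 8 negative fold changes, and the median was -0.047. Hspa5 (chr2:34771970-34777547, plus strand) had lowest, median and highest levels of 1372, 1496 and 1767 CPM with DMSO and 1322, 1434 and 1660 CPM with adjudin. It was lower in 6 of 8 batches, but the difference did not pass the test (log2 fold change -0.055, 95% interval -0.11 to 0.0030, edgeR adjusted p = 0.265). The interval leaves room for a fall of up to 7.56% and a rise of 0.211%.

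Hsp90b1 had a log2 fold change of -0.045. The most negative values of the group belonged to Creld2, a secreted ER stress protein with disulfide isomerase activity (-0.11, edgeR adjusted p = 0.0876), and to Sdf2l1, a partner of BiP and its J proteins (-0.10, adjusted p = 0.170). Manf, a neurotrophic factor retained by BiP, had -0.050. Manf overlaps Rbm15b on the same strand and Dcaf1 on the opposite strand. Reads from the shared stretches cannot be told apart, those of Dcaf1 because no source used here gives the strand setting of the counting.

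The J proteins hand clients to BiP: Dnajb9 had 0.019, Dnajb11 -0.054 and Dnajc3 -0.0051 on the log2 scale. The nucleotide exchange factors of BiP, Hyou1 and Sil1, had 0.053 and -0.0012. None of these 5 values had an unadjusted p under 0.05.

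The lectin chaperones hold glycoproteins during folding. Calr was lower with adjudin in 8 of 8 batches, with the smallest step in batch 2 (939 to 936 CPM) and the largest in batch 7 (1081 to 968 CPM), and its log2 fold change of -0.073 did not pass the test (edgeR adjusted p = 0.137). Canx, the membrane-bound calnexin, had a mean of 537 CPM in either group, with SDs of 20.9 (DMSO) and 19.7 (adjudin) over 8 samples each.

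Of the 7 disulfide isomerases and oxidases, 1 passed the test (Ero1lb) and 5 had negative fold changes. P4hb had lowest, median and highest levels of 1159, 1220 and 1325 CPM with DMSO and 1128, 1155 and 1269 CPM with adjudin. It was lower in every batch, by log2 differences with an SD of only 0.016 over the batches, the smallest of the 37 genes. The log2 fold change was -0.068 ± 0.025 (SE), or a value 4.64% lower, with an edgeR adjusted p of 0.118, and P4hb passed the threshold in DESeq2. Pdia3 ranged from 1057 over a median of 1099 to 1275 CPM with DMSO and from 1003 over 1080 to 1299 CPM with adjudin.

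Its log2 fold change was -0.034 (edgeR adjusted p = 0.518). Pdia6 had -0.068 and Txndc5, a thioredoxin-domain isomerase, -0.063, both with an unadjusted p under 0.05 and adjusted p values of 0.226 and 0.191, and Pdia4 had -0.036. Ero1l ranged from 56.5 over 66.7 to 74.9 CPM with DMSO and from 57.2 over 68.9 to 74.0 CPM with adjudin. At 0.058 its fold change had the sign of that of Ero1lb but did not pass the test (edgeR adjusted p = 0.385).

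The sensors and Xbp1 gave 0 calls of 4 in edgeR, while Atf6 and Ern1 had an unadjusted p under 0.05. Atf6 had lowest, median and highest levels of 120, 135 and 169 CPM with DMSO and 124, 147 and 175 CPM with adjudin, was higher in 7 of 8 batches and had a log2 fold change of 0.082 (95% interval 0.022 to 0.14, edgeR adjusted p = 0.106). Ern1 ranged from 208 over 221 to 287 CPM with DMSO and from 213 over 241 to 271 CPM with adjudin, with 0.082 on the log2 scale (adjusted p = 0.195). Neither sensor separated the groups.

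Eif2ak3 ranged from 161 over 188 to 228 CPM with DMSO and from 150 over 190 to 247 CPM with adjudin. Its batches went both ways, up in batches 7 and 8 and down in the other 6, and the log2 fold change was -0.0050 (95% interval -0.086 to 0.076, edgeR adjusted p = 0.960). Xbp1 ranged from 310 over 334 to 370 CPM with DMSO and from 305 over 325 to 337 CPM with adjudin, with -0.033 (95% interval -0.095 to 0.030, adjusted p = 0.57). The DMSO range of Xbp1 enclosed nearly all of the adjudin range.

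ER-associated degradation carries misfolded proteins back to the cytosol for the proteasome. Of its 7 genes 0 passed the edgeR test and 0 had an unadjusted p under 0.05. The log2 fold changes ran from -0.032 for Syvn1, the ubiquitin ligase, to 0.059 for its partner Sel1l, and the value nearest to 0 was that of Edem1, which takes up trimmed glycoproteins, at -0.00022 (95% interval -0.061 to 0.060). Herpud1, which binds the ligase complex, had 0.039 and Derl1 -0.010. Derl2 ranged from 80.3 over 92.9 to 108 CPM with DMSO and from 82.9 over 92.3 to 109 CPM with adjudin (log2 fold change 0.0097, edgeR adjusted p = 0.872).

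Derl3 was the least certain, from 4.16 over 5.21 to 6.38 CPM with DMSO and from 4.36 over 5.16 to 7.99 CPM with adjudin. Its interval, -0.16 to 0.20, was the widest of the 37. Derl2 overlaps Mis12 and Syvn1 overlaps Mrpl49, each on the opposite strand, and reads from any shared stretches cannot be told apart.

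All 5 genes of the translocon, its associated proteins and signal peptidase had negative fold changes and 0 passed the edgeR test, with 2 (Ssr3 and Sec61b) at an unadjusted p under 0.05. Ssr3, a subunit of the translocon-associated protein complex, was lower in 8 of 8 batches (log2 fold change -0.061, edgeR adjusted p = 0.235). With P4hb and Calr it makes 3 of 37 genes that were lower in every batch, against 3.15% of all tested genes. Sec61b, a subunit of the channel, ranged from 129 over 154 to 209 CPM with DMSO and from 122 over 136 to 210 CPM with adjudin. Its log2 fold change was -0.11 (edgeR adjusted p = 0.167), and the largest falls were in batch 7 (183 to 148 CPM) and batch 8 (168 to 130 CPM).

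Sec61a1, the channel itself, had -0.034 and Ssr1 -0.0095. Sec11c, a catalytic subunit of signal peptidase, ranged from 84.1 over 113 to 175 CPM with DMSO and from 90.1 over 117 to 194 CPM with adjudin, with -0.0067 (edgeR adjusted p = 0.947). Nucb2, which encodes a calcium-binding protein, had 0.021 (adjusted p = 0.772).

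The 10 genes with an ERSE had a median log2 fold change of -0.039, with 1 called higher (Ero1lb) and 0 lower. The 20 matched genes without an ERSE had a median of -0.0073, with 1 called higher (Wfs1) and 0 lower. The ranges, -0.11 to 0.14 and -0.11 to 0.12, were nearly the same.

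For most of these genes the level varied more from batch to batch than the adjudin minus DMSO difference did. Over the 8 batches, the SD of the batch mean exceeded the SD of the adjudin minus DMSO difference in 33 of 37 genes, against 61.6% of all tested genes, and the median ratio of the SDs was 1.83 against 1.23. The exceptions were Derl1, Derl3, Edem1 and Xbp1. Among the 3565 abundant genes defined above, the median SD was 0.175 for the batch means and 0.086 for the differences. The 37 genes had medians of 0.141 and 0.072, so a larger spread between batches was not particular to them. The largest spread of the batch means, as SD on the log2 scale, was that of Sec11c (0.37), followed by Ero1lb (0.35) and Sec61b (0.28), and the smallest that of Edem1 (0.038). Among the DMSO samples Ero1lb varied 2.28-fold from batch 4 to batch 7, Sec11c 2.08-fold from batch 4 to batch 3 and Sec61b 1.62-fold from batch 5 to batch 3.

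Batch 4 was the farthest from the mean for 13 of the 37 genes, batch 2 for 7, batch 7 for 6, batch 3 for 4 and each other batch for 3 or fewer. Batches 2 and 3 shared high Hsp90b1, Pdia6, Ssr3 and Sec11c and low Syvn1 and Wfs1 in their DMSO samples, for example 1185 and 1103 CPM of Hsp90b1 against 717 to 858 CPM in the others. Their Wfs1 levels, 69.7 and 69.1 CPM, lay below the 84.9 to 109 CPM of the others.

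Batch 4 had the lowest DMSO level of 10 genes, Ero1lb, Sec11c, Dnajb9 and Sdf2l1 among them, and the highest of 9 others, including P4hb, Calr, Txndc5 and Canx. Batch 7 had the highest DMSO level of 9 genes, Ero1lb, Nucb2, Sil1 and Creld2 among them. Batch 4 was also the batch with the lowest beta cell marker sum (35958 CPM, against 66314 to 121500 in the others) and the highest sum of stellate cell and fibroblast markers (19535 CPM).

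**Figure D4:**
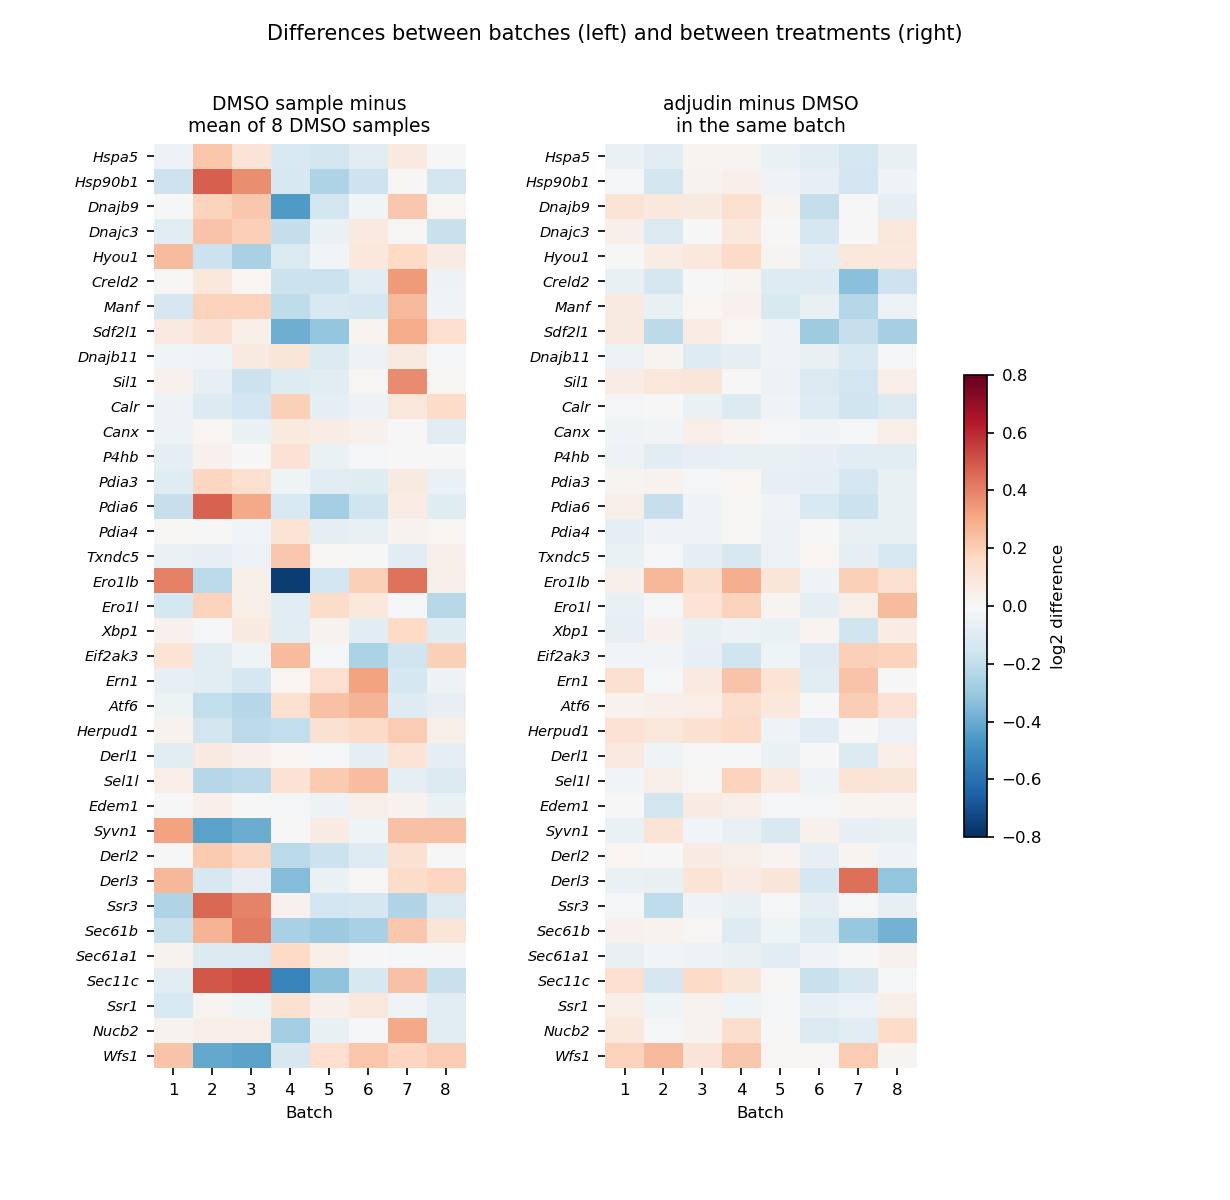
Left, log2 level of each gene in each DMSO sample minus the mean of the 8 DMSO samples; right, adjudin minus DMSO within each batch, on the same colour scale of log2 differences from -0.8 to 0.8. The left panel is the more strongly coloured, with batches 2 and 3 alike and batch 4 lowest for Ero1lb and Sec11c.

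The genes did not vary as a single block. Across the 8 DMSO samples, log2 CPM of 7 of the other 36 genes correlated positively with that of Hspa5 and of 3 negatively, at an adjusted p under 0.05 (exact permutation of Pearson r, adjusted by Benjamini-Hochberg over all 74 relations computed). The points share the library and its depth. The positive genes were Derl2 (r = 0.96, rho = 0.95, exact permutation p = 0.000149 and 0.00114), Pdia6 (r = 0.94), Sec11c (0.91), Sec61b (0.91), Hsp90b1 (0.90), Pdia3 (0.90) and Manf (0.88). Without batches 2 and 3, the farthest from the median of Hspa5, their r lay between 0.70 and 0.96.

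The negative genes were Sel1l (r = -0.91, rho = -0.90, exact permutation p = 0.00198 and 0.00456), Atf6 (r = -0.88, rho = -0.90) and Sec61a1 (r = -0.83, rho = -0.88), with r between -0.86 and -0.61 without batches 2 and 3. By Spearman's rho, Derl2 and Sec61b passed after adjustment (adjusted p = 0.0422 and 0.0294, exact permutation). Xbp1 followed Hspa5 only loosely (r = 0.37, rho = 0.31, exact permutation adjusted p = 0.542 and 0.60). Without batches 2 and 3, r went from 0.67 to -0.54 for Ssr3, from -0.62 to 0.43 for Wfs1 and from -0.55 to 0.69 for Syvn1. Calr, Ero1l, Herpud1, Hyou1 and P4hb also changed sign, so that the sign of r with Hspa5 rested on those samples for all of these genes.

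Gene length went with part of this pattern. The 3 negative genes had lengths between 6732 and 9231 bases in the table, the 7 positive genes between 1271 and 8049 with a median of 3524, and the median of all 37 was 3787. Derl2, with the highest r, had 8049 bases and was longer than the negative gene Sec61a1 (6732). Ssr1, the longest of the 37 at 10431 bases, had an r of only -0.32. In each library the level of a gene relative to the other libraries of its treatment was set against gene length over all 16910 genes, and this rank correlation ran from -0.33 (batch 7) to 0.35 (batch 6) in the DMSO samples. Hspa5 fell as it rose (r = -0.86, rho = -0.83, exact permutation adjusted p = 0.0439 and 0.0875, r = -0.80 without batches 5 and 6). The part of length in the relations with Hspa5 was not tested.

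The adjudin minus DMSO differences also went with gene length in some batches. Over all 16910 genes their rank correlation with length was 0.18, 0.19, 0.32 and 0.19 in batches 4, 5, 7 and 8 and lay between -0.10 and 0.035 in the other 4. Of the genes with the largest positive values Ero1lb has a length of 6653 bases, Wfs1 3787, Atf6 9231 and Ern1 8173, and of those with the most negative values Creld2 has 1366, Sec61b 1271 and Sdf2l1 1108. The part of length in these changes was not tested.

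**Figure D5:**
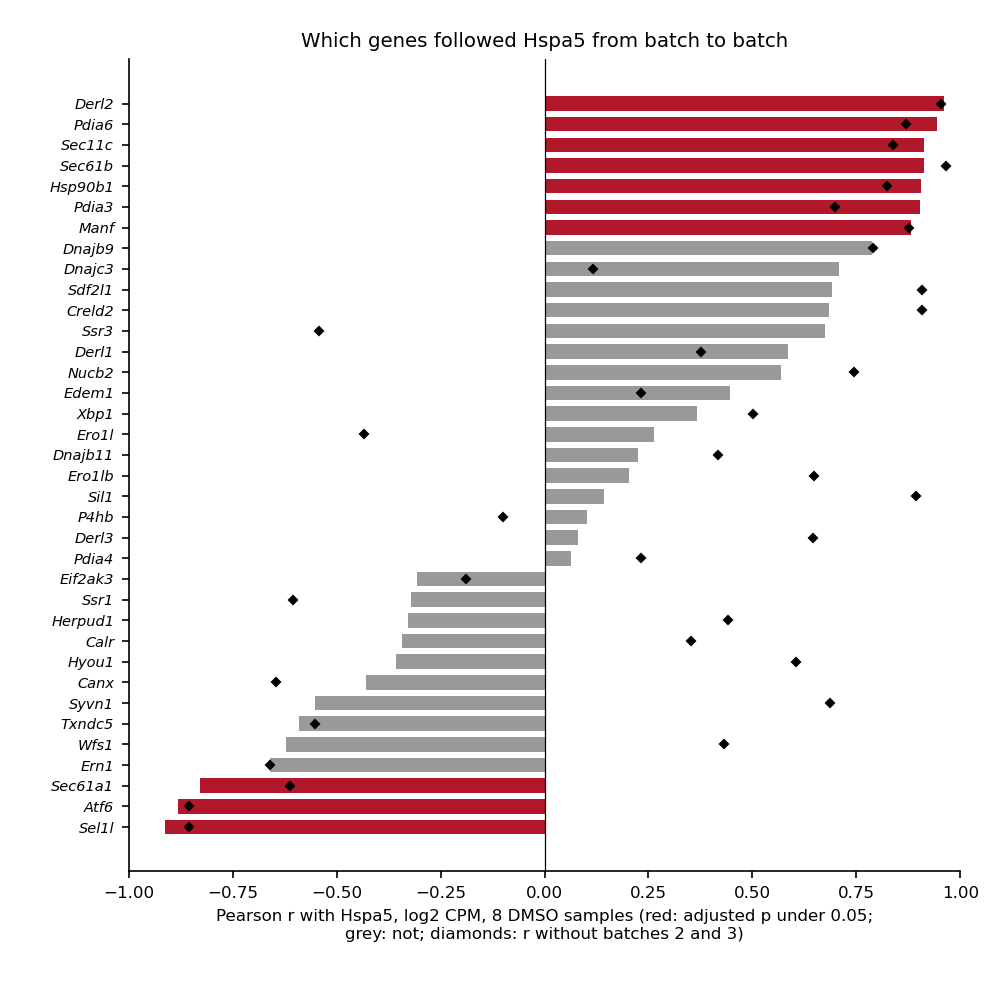
Pearson r of each of the other 36 genes with Hspa5 over the 8 DMSO samples, from log2 CPM. Red bars have an adjusted p under 0.05, grey bars do not, and diamonds give r without batches 2 and 3. Bars run from 0.96 for Derl2 to -0.91 for Sel1l, and the diamonds of Ssr3, Wfs1, Syvn1, Calr, Ero1l, Herpud1, Hyou1 and P4hb lie on the other side of 0 from their bars.

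The summed beta cell markers were set against the 37 genes in the same way, and Hspa5 itself had r = 0.52 with their sum. That sum was mostly hormone mRNA, with DMSO means of 52540 CPM for Ins2, 14464 for Ins1 and 11736 for Iapp. Every other marker of the list had a mean of 409 CPM or less. Over the DMSO samples 5 of 37 genes correlated with the log2 sum at an adjusted p under 0.05: Nucb2 (r = 0.93), Dnajb9 (0.92), Ero1lb (0.91) and Sdf2l1 (0.86) positively and Txndc5 (-0.94) negatively. By rho 0 of the 37 passed after adjustment. Without batches 4 and 7, the lowest and the highest in beta cell markers, r was 0.71 for Nucb2, 0.70 for Dnajb9, 0.56 for Ero1lb, 0.61 for Sdf2l1 and -0.59 for Txndc5, so the relations rested in large part on those batches. For Ero1lb rho was 0.86 (exact permutation p = 0.0107, adjusted p = 0.0793).

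Marker levels also moved with adjudin. Of 9 beta cell markers 3 were called higher (G6pc2, Pdx1 and Nkx6-1) and 0 lower. The summed level of the 9, 35958 to 121500 CPM with DMSO and 40022 to 105110 CPM with adjudin, was higher in 6 of 8 batches. It was mostly Ins2, Ins1 and Iapp, so G6pc2, Pdx1 and Nkx6-1 weighed little in it. Of 10 macrophage markers 7 were called lower, and their sum fell in 8 of 8 batches, from a range of 565 to 1162 to a range of 541 to 798 CPM. Of 9 markers of stellate cells and fibroblasts 5 were called lower, with a sum of 9465 to 19535 and 9103 to 17492 CPM that was lower in 7 of 8 batches.

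Of 15 tested acinar markers 1 was called lower, and the summed acinar level (5671 to 13902 CPM with DMSO, 6142 to 11419 CPM with adjudin) was lower in 6 of 8 batches. The sums of the alpha, delta, PP and endothelial markers were each higher with adjudin in 6 of 8 batches, as for beta cells. Of the alpha, delta and PP markers 0 were called, and of 6 endothelial markers 1 was called higher (Flt1, edgeR adjusted p = 0.0137). The ductal sum was higher in 4 of 8 batches, with 1 of 8 markers called lower, and the plasma and B cell sum in 3 of 8. No gene of any marker list was at 0 in all samples. The part of these shifts in the changes of Ero1lb, Wfs1 and the other ER genes was not tested. The beta cell sum was lower with adjudin in batches 6 (80869 to 78393 CPM) and 7 (121500 to 105110 CPM). Ero1lb was lower in batch 6 (308 to 301 CPM) and higher in batch 7 (364 to 415 CPM).

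The other genes of the ER pathway, in 6 lists that hold 132 tested genes outside the 37, gave 2 calls higher and 8 lower, with a median log2 fold change of -0.023 and 93 negative values. Over all 16910 tested genes 2.17% were called higher and 3.07% lower and 8215 values were negative, and of the 3565 abundant genes defined above 125 were called higher and 212 lower. Of the 10 calls, 5 were among folding enzymes and chaperones, where 4 of 31 genes were lower and 1 was higher. Fkbp10, a prolyl isomerase that works on collagen, went from 150 ± 23.0 to 129 ± 20.5 CPM (SD, n = 8), lower in 8 of 8 batches (log2 fold change -0.22, edgeR adjusted p = 0.000861). Ppib, the ER cyclophilin, had -0.14 (adjusted p = 0.00736) and Fkbp11, a prolyl isomerase of secretory cells, -0.20 (adjusted p = 0.0107), each lower in 8 of 8 batches. The other calls of this list, named after their values were seen, were Fkbp7 (-0.25, adjusted p = 0.0220), a further prolyl isomerase, and Txndc16 (0.19, adjusted p = 0.0291). Fkbp10 and Ppib are known from collagen folding, and the markers of stellate cells and fibroblasts were lower in the same samples, as given above. The part of those cells in these calls was not tested.

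In the list of UPR signalling and the PERK and ATF4 branch 1 of 20 genes was lower, Atf3, a stress-induced transcription factor. Atf3 went from 25.5 ± 4.05 to 21.3 ± 3.10 CPM (SD, n = 8) and was lower in 8 of 8 batches (log2 fold change -0.26, edgeR adjusted p = 0.00116). The 3 genes of that branch named here did not pass the edgeR test: Atf4 had -0.012 (adjusted p = 0.856), Ddit3, encoding CHOP, 0.059 (adjusted p = 0.390) and Trib3 -0.0092 (adjusted p = 0.916). Among 25 further degradation genes Sel1l3 was higher (0.15, adjusted p = 0.0141) and Ube2j2, a ubiquitin-conjugating enzyme of the ER, lower (-0.095, adjusted p = 0.0453). The call of Ube2j2 was lost with DESeq2, voom, RLE factors, library totals, the filter of 1 count, no batch term and in 7 of the 8 fits that left out a batch. Ost4, a small subunit of oligosaccharyltransferase, was the 1 lower gene of 17 in N-glycosylation (-0.16, adjusted p = 0.0298). Kdelr3, a receptor that returns ER proteins from the Golgi, was the 1 of 20 in export from the ER (-0.17, adjusted p = 0.00678). The N-glycosylation list kept 1 lower call in 4 of the 8 fits that left out a batch and had 0 in the rest, while the export list kept 1 in 8 of 8. The translocon, signal recognition particle and signal peptidase list had 0 calls of 19, with 8 genes lower at an unadjusted p under 0.05 and 2 called lower by DESeq2.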

How the data were processed

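RNA of the islets was purified with poly-T beads and sequenced as paired ends. The authors aligned reads to GRCm38/mm10 with HISAT2 2.0.5, assigned them to genes with featureCounts 1.5.0-p3, and the raw counts were deposited. Annotation release and strand setting: not given in the sources used here. Tools and build are also named in the submitters' processing notes. No sample and no column was left out.

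From the deposited counts, genes were filtered with filterByExpr in edgeR 4.0.16 (R 4.3.3), keeping 16910 of 54532, and TMM factors set the library sizes. The test was edgeR's quasi-likelihood test with batch and treatment as terms, Benjamini-Hochberg adjusted over all tested genes, threshold 0.05. Each standard error is the size of the log2 fold change divided by the root of its F statistic. RPKM used the gene length in the table, and log2 CPM a prior count of 2. Alternatives were DESeq2 1.42.0, limma-voom (limma 3.58.1), other scalings, a filter of 1 count, no batch term and leaving out each batch.

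The study's methods name DESeq2 without a formula, and the batch term was used because the labels number the batches. Deviations from the treatment means correlated within batches (0.37 to 0.69, with a median of -0.18 for other pairs), and 8 of 8 adjudin samples lay closest to their own batch's DMSO sample. No 2 samples were identical, and the smallest chi-square per degree of freedom within a treatment was 8.97. A sample was the islets of 1 to 2 mice. Whether the samples of a batch share mice is not stated. The p-values of the edgeR test measure the spread of the adjudin minus DMSO difference over these batches, since the batch term takes up the differences between them.

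The genes and lists were chosen with earlier results of these data known. Values in full are given for genes with an adjusted p under 0.05, Hspa5, Xbp1, the sensors, the 3 highest and 3 lowest in RPKM and the 3 with the largest spread between batches. Of other ER lists, up to 3 genes with the smallest p in lists with a call were named, with Atf4, Ddit3 and Trib3. Genes lower in 8 of 8 batches and genes named within a role were added after their values were seen. Promoter sequences are from RefSeq.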

Additional observations from a re-analysis of the deposited data

Results flagged for a closer look

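Among the 37 genes, the highest or lowest of the 8 samples of a treatment stood apart from the rest in 6 of 74 groups of samples, by a gap to the nearest sample that exceeded Dixon's 95% critical share of the group's range. Chance marks about 1 group in 20. With DMSO, batch 7 was highest for Sil1 (88.7 CPM, the next sample 69.8) and for Creld2 (111 CPM, the next 93.4), and batch 4 was highest for Txndc5 (382 CPM, the next 339). With adjudin, batch 4 was highest for Pdia4 (291 CPM, the next 262) and for P4hb (1269 CPM, the next 1175). Batch 1 was lowest with adjudin for Ero1l (57.2 CPM, the next 66.1).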

How the results depend on the processing

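The numbers of calls depended mostly on the batch term. In the fit with no replicate block, that is without pairing by batch, 0 of the 37 genes were called and over all genes 1 was higher and 0 lower, against 367 and 519 with the block. DESeq2 called 1 of the 37 lower (P4hb), a filter of 1 count in total raised the genes called higher to 826, and voom, RLE factors and library totals each called the same 2 of the 37. Leaving out a batch gave 0 to 2 of the 37 higher, 139 to 546 genes higher and 273 to 525 lower. The setting without batches 2 and 3, chosen after seeing the data, gave 0 of the 37 higher, 90 genes higher and 167 lower, with fewer samples. Directions turned only for values near 0 among the 14 genes named in full. Eif2ak3 became 0.0015 with library totals, 0.0023 with the filter of 1 count, 0.011 without batches 2 and 3, and ran from -0.032 to 0.021 with a batch left out. Sec11c became 0.00076 with the filter of 1 count and ran from -0.030 to 0.021 with a batch left out, and Derl3 ran from -0.041 to 0.074. The causes were not tested. Derl3 had the fewest counts and the widest interval.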
